A study of Mus musculus with 21 samples.

Results

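A list of 8 genes of red-cell formation was followed in newborn mice: Gata1, Klf1, Epor, Tfrc, Alas2, Slc4a1, Sptb and Ahsp. Each symbol was looked up in the count files of all 21 libraries. Of the 8 symbols, 7 were found among the 24391 gene symbols of a count file, and Ahsp is not analysed here. Newborn (P0) C57BL/6 mice gave RNA of 3 tissues, liver, brain and skin, with 1 library per mouse and tissue. The 2 knock-in (KI) mice, labelled Jak1 KI +/-, were heterozygous for a histidine-to-aspartic acid change in the kinase Jak1, which CRISPR/Cas9 editing had introduced together with 2 silent changes beside it. The 5 wild-type (WT) mice carried no edit. The KI mice descended from a mosaic edited male, the allele was present in every cell type rather than driven in one of them, and the sex and litter of the mice are not given.

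In the fetus, red cells are made mainly in the liver, and around birth the site moves to the spleen and bone marrow, so that the newborn liver still holds islands of maturing erythroblasts among its hepatocytes. The hormone erythropoietin keeps erythroid progenitors alive through its receptor, which signals through Jak2. The transcription factors Gata1 and Klf1 then switch on the genes for globin, haem synthesis and the red-cell membrane, and the cell loses its nucleus and enters the blood. Reticulocytes, the youngest red cells in blood, still carry some of this RNA.

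Each library held between 26549326 and 38388133 reads counted on genes. The labelled tissues carried their own markers: 8 hepatocyte markers summed to 242000 to 300000 CPM (the counts-per-million scale) in the livers and to 2.48 to 32.4 CPM in the skins. In the brains that sum was 29.6 to 2030 CPM, of which Ttr, which the choroid plexus also makes at high level, was 17.1 to 2020 CPM in the WT brains. The 8 brain markers summed to 7910 to 9410 CPM in the brains. The 8 skin markers varied widely among the skins, with 1440 to 15000 CPM in WT, 12400 CPM in KI 1 and 877 CPM in KI 2. The part of this spread in the skin values given below was not tested. The brain library of WT 5 stood apart from the other WT brains, with a chi-square per degree of freedom over genes of 176 to 208 against each of them, compared with 26.1 to 42.1 among the others. KI against WT values of the brain are given with and without that library, and other comparisons with the brain where leaving out WT 5 changed a call. In bulk tissue, fewer cells of a type and less RNA per cell cannot be told apart.

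Levels are first given per length of transcript, as RPKM (reads per kilobase of transcript on the counts-per-million scale), which lets genes be compared with each other. In the 7 livers the order was Slc4a1 (median 556 RPKM), Alas2 (462), Tfrc (131), Klf1 (89.7), Sptb (53.0), Gata1 (43.4) and Epor (36.3). The neighbours in this order were cleanly separated except in 2 places. Slc4a1 exceeded Alas2 in 6 of 7 livers and Sptb exceeded Gata1 in 5 of 7. The 2 genes of the list with the highest levels thus encode the main anion exchanger of the red-cell membrane and the erythroid enzyme that starts haem synthesis, and the receptor for erythropoietin had the lowest level.

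In the skin the order differed, with Tfrc first (median 8.23 RPKM), followed by Alas2 (7.51), Sptb (3.57), Epor (3.48), Gata1 (0.939), Slc4a1 (0.454) and Klf1 (0.412). In the brain Tfrc was again first (17.8 RPKM), before Sptb (6.85), Alas2 (2.89), Epor (0.395), Klf1 (0.162), Slc4a1 (0.0697) and Gata1 (0 in the median library). By its median Slc4a1, first in the liver, was sixth in both other tissues. Klf1 and Slc4a1 were not separated in the brain, where Klf1 was higher in 4 of 7 libraries, and neither were Sptb and Epor in the skin, where Sptb was higher in 4 of 7. Other neighbours were not cleanly separated either. In the skin Tfrc exceeded Alas2 in 6 of 7 libraries, Alas2 exceeded Sptb in 5 of 7 and Slc4a1 exceeded Klf1 in 5 of 7. In the brain Sptb exceeded Alas2 in 5 of 7.

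**Figure D1:**
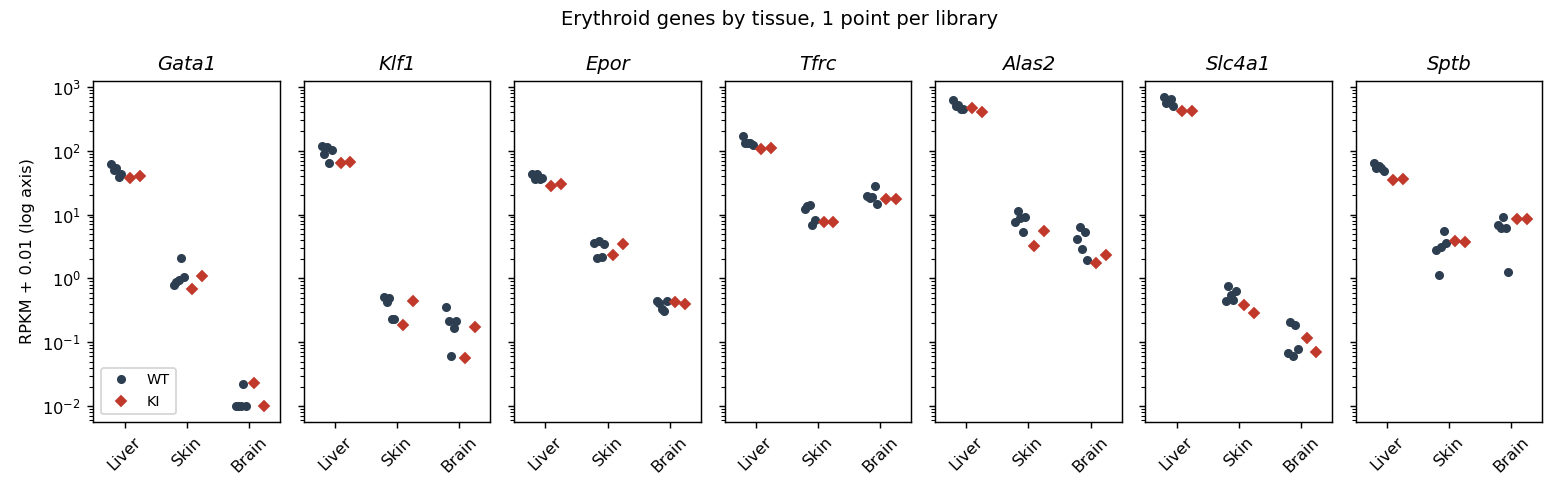
RPKM plus 0.01 of each gene (log axis) in the liver, skin and brain, with 1 point per library, circles for WT and diamonds for KI mice. All 7 genes are highest in the liver, and Gata1 has at most 1 read in any brain library.

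Gata1 lies on the minus strand of chromosome X (NCBIM37, the build also called mm9, chrX:7536386-7555197) and encodes the zinc-finger factor that erythroid, megakaryocytic and mast cells depend on. In the WT livers it measured 119, 94.8, 103, 74.1 and 82.6 CPM after scaling by trimmed mean of M-values (TMM), in the order WT 1 to WT 5. The KI livers measured 71.5 CPM in KI 1 and 77.6 CPM in KI 2. KI 1 was the lowest of the 7 livers, but WT 4 lay below KI 2, so the groups overlapped. The mean was 74.6 ± 4.29 CPM in KI (SD, n = 2) and 94.8 ± 17.6 CPM in WT (SD, n = 5). The log2 fold change of KI against WT was -0.33 with a standard error (SE) of 0.179, and the adjusted p was 0.372 (edgeR quasi-likelihood test with Benjamini-Hochberg adjustment over all genes tested, as in all comparisons that follow).

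Klf1 (plus strand, chr8:87425827-87429194, NCBIM37) encodes the erythroid factor that binds CACCC boxes, among them that of the adult beta-globin promoter. The WT livers measured 184, 138, 175, 97.6 and 160 CPM in WT 1 to WT 5. The KI livers measured 99.3 and 101 CPM in KI 1 and KI 2. WT 4 was lower than both KI livers, whereas the other 4 WT livers were higher than both. KI against WT gave a log2 fold change of -0.58 (SE 0.226, adjusted p = 0.226). Without WT 4 it was -0.70, with an adjusted p of 0.0257. Without any other WT mouse it was -0.61 to -0.49, with adjusted p of 0.265 to 0.34.

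Epor (minus strand, chr9:21763343-21768020, NCBIM37) encodes the erythropoietin receptor. The WT livers measured 78.0, 65.8, 79.9, 66.3 and 67.6 CPM, and the KI livers 50.3 and 54.5 CPM. Both KI livers were below every WT liver. The log2 fold change was -0.43 (SE 0.122) with an adjusted p of 0.102, just outside the threshold of 0.1. The Wald test of DESeq2 gave an adjusted p of 0.0329, library totals 0.141 and the fit of all 21 libraries 0.537. Leaving out WT 4 gave 0.0639, and leaving out any other WT mouse gave 0.122 to 0.174.

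The stretch of 250 bases before the start site was read for 6 of the 7 genes from RefSeq (GRCm38.p6) and searched on both strands for GATAA, the core that GATA factors recognise, and CACCC, the core of the boxes that Klf1 recognises. The 2 motifs do not overlap each other. Of 32851 RefSeq promoters, 22.6% held GATAA, 52% held CACCC and 10.1% held both in this window. The promoters of Klf1, Epor and Alas2 held both, and they are shown because these 3 genes are, in turn, the factor, the receptor and the enzyme of the list. The capitals mark the motifs, as GATAA or CACCC on the gene's strand and as TTATC or GGGTG where the match is on the other strand.
Klf1 (chr8:84901732-84901981, plus strand): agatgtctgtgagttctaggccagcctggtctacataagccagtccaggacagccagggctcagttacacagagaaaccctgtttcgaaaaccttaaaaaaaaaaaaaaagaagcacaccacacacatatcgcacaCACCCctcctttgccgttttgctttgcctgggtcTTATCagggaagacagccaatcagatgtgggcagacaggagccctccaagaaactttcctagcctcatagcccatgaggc
Epor (chr9:21963577-21963826, minus strand): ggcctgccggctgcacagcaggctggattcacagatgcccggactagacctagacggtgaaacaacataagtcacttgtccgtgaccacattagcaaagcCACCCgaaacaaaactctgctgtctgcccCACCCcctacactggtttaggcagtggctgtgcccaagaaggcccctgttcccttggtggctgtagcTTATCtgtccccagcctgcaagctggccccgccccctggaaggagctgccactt
Alas2 (chrX:150547167-150547416, plus strand): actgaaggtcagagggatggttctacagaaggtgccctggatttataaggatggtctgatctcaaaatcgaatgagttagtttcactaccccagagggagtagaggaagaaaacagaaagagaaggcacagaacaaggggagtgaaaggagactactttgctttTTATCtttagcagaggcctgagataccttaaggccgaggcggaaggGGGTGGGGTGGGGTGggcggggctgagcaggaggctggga
Alas2 held 3 CACCC motifs in a row and 1 GATAA. Klf1 held 1 of each, and Epor held 2 CACCC and 1 GATAA. Gata1 held 2 CACCC, Sptb 1, and the 2 RefSeq promoters of Tfrc 2 and 3, without GATAA in this window. Slc4a1 has no entry in the table used. These letters describe the windows and are not measured binding sites.

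Tfrc (plus strand, chr16:32609006-32632880, NCBIM37) encodes the transferrin receptor, through which erythroblasts and other dividing cells take up iron. The WT livers measured 818, 640, 650, 646 and 597 CPM, and the KI livers 517 and 534 CPM. WT 1 stood well above the other livers, and both KI livers were below every WT liver. The resulting log2 fold change of -0.34 (SE 0.134) had an adjusted p of 0.234.

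Alas2 (plus strand, chrX:146981918-147005181, NCBIM37) encodes erythroid 5-aminolevulinate synthase, the first enzyme of haem synthesis in red cells. The WT livers measured 1248, 1018, 1053, 915 and 913 CPM, and the KI livers 940 and 821 CPM. KI 1 lay above WT 4 and WT 5, and KI 2 was the lowest of all. KI against WT gave -0.21 on the log2 scale (SE 0.146, adjusted p = 0.495), the smallest in size of the 7 genes.

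Both Tfrc and Alas2 carry iron-responsive elements, hairpins with a CAGTGN loop that iron regulatory proteins bind when iron is low, which stabilises Tfrc RNA and holds back translation of Alas2 RNA. They are shown because each gene's RNA level or translation is set by iron through them. The NCBIM37 transcripts were searched for a C, a short stem, a CAGTGN loop and a pairing stem. The search found 1 such hairpin in the 5′ UTR of Alas2 and 4 in the 3′ UTR of Tfrc. Each is shown as 27 bases, of which the outer bases on either side were not required to pair. The loop is in capitals.
Alas2, 5′ UTR (chrX:146982002-146982028, plus strand): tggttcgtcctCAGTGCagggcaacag
Tfrc, 3′ UTR, the first (chr16:32631306-32631332, plus strand): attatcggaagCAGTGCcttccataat
Tfrc, 3′ UTR, the second (chr16:32631685-32631711, plus strand): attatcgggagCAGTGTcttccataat
Tfrc, 3′ UTR, the third (chr16:32631750-32631776, plus strand): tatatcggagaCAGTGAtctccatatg
Tfrc, 3′ UTR, the last (chr16:32631797-32631823, plus strand): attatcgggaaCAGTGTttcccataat
The same search found a hairpin in 0.0882% of 19277 5′ UTRs and in 0.477% of 19485 3′ UTRs, and Tfrc was the 1 transcript with 4 or more of them in its 3′ UTR.

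Slc4a1 (minus strand, chr11:102210138-102227517, NCBIM37) encodes band 3, the anion exchanger that also anchors the membrane skeleton of red cells. The WT livers measured 3198, 2529, 2719, 2916 and 2299 CPM, and the KI livers 1892 and 1912 CPM. The KI livers were nearly equal, and both were below every WT liver. The mean was 1900 ± 14.2 CPM in KI (SD, n = 2) and 2730 ± 346 CPM in WT (SD, n = 5), and the level fitted by edgeR was 1.42-fold higher in WT. The log2 fold change was -0.51 (SE 0.138) and passed the threshold with an adjusted p of 0.0956. That call is narrow: the adjusted p was 0.131 with library totals in place of TMM, and 0.102 to 0.414 when any mouse other than WT 5 was left out.

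Sptb (minus strand, chr12:77681475-77811534, NCBIM37) encodes erythroid beta-spectrin of the membrane skeleton, and is also expressed in brain and skeletal muscle. The WT livers measured 666, 555, 603, 550 and 497 CPM, and the KI livers 363 and 372 CPM. Both KI livers were below every WT liver, with a gap wider than the difference between them. The mean was 368 ± 5.91 CPM in KI (SD, n = 2) and 574 ± 63.5 CPM in WT (SD, n = 5). The log2 fold change was -0.63 (SE 0.130, adjusted p = 0.0401), the lowest adjusted p of the 7 genes.

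**Figure D2:**
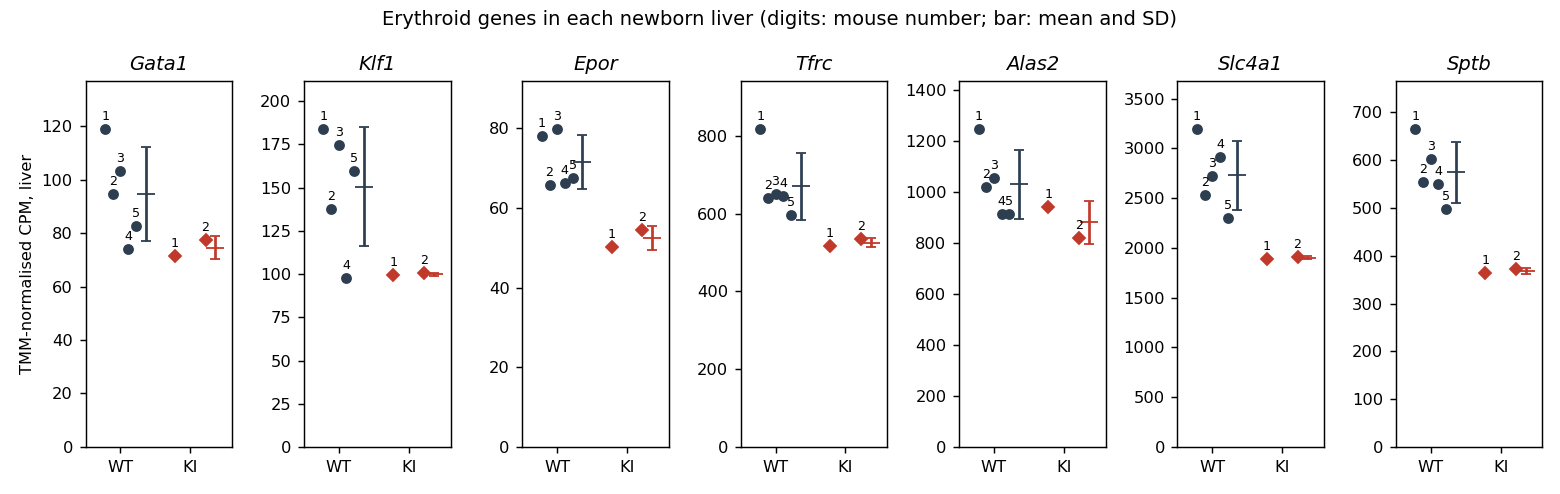
TMM-normalised CPM of the 7 genes in each liver, with circles for the 5 WT and diamonds for the 2 KI mice, digits for the mouse number, and bars for the mean and SD. Both KI livers lie below all WT livers for Epor, Tfrc, Slc4a1 and Sptb, and overlap the WT livers for Gata1, Klf1 and Alas2.

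Taken over the list, all 7 genes were lower on average in KI than in WT liver, and 2 of them, Slc4a1 and Sptb, fell at an adjusted p under 0.1. At an unadjusted p under 0.05 there were 5 of the 7. Over all 14966 genes tested in the liver, 5.57% were called, 1.68% lower and 3.89% higher, and 17.9% had an unadjusted p under 0.05. The median log2 fold change was -0.43 for the 7 genes and -0.02 for all genes tested. For 4 of the 7 genes both KI livers were below all WT livers, which was the case for 12.9% of all genes. No gene of the list was called when either KI mouse was left out, a fit in which the lone KI liver is assumed to vary like the WT livers, and 1 was called without WT 1, WT 2 or WT 3 and 3 without WT 4. The 7 fold changes stayed below 0 whichever mouse was left out, with Alas2 between -0.30 and -0.11.

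The 7 genes deviated together from mouse to mouse. WT 1 had the highest liver value of 6 of the 7 genes, and lay 0.13 to 0.35 above the WT mean on the log2 scale. KI 1 had the lowest value of 5 of them, at 0.12 to 0.65 below that mean, and KI 2 lay 0.27 to 0.62 below it. WT 4 was mixed, since Klf1 was 0.59 below the mean there and Slc4a1 was 0.10 above it. Over the 7 livers, the Pearson r of each gene with the mean of the others ranged from 0.799 for Klf1 to 0.940 for Sptb, a description across libraries that share the KI and WT difference.

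**Figure D3:**
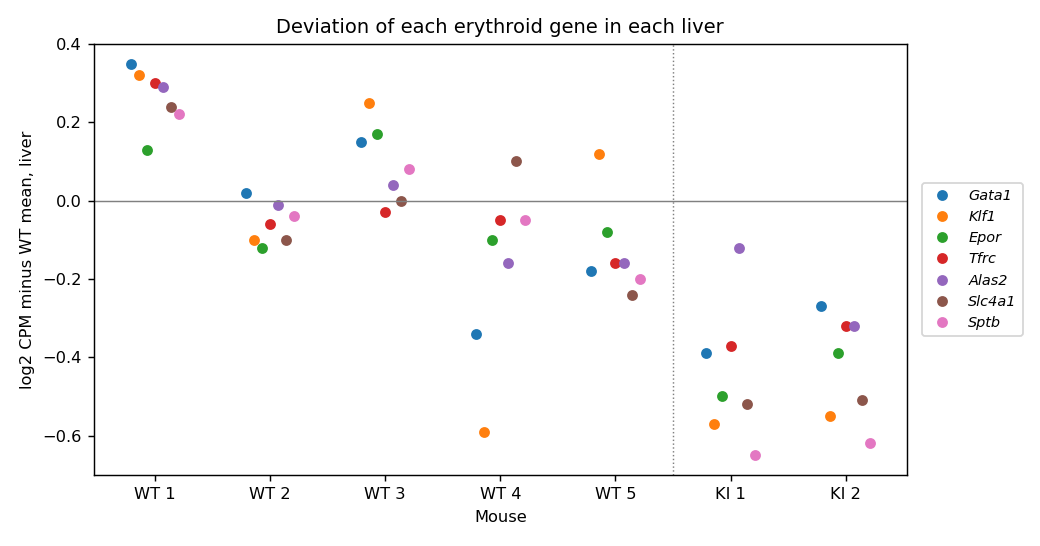
Log2 CPM of each gene in each liver minus the mean of the 5 WT livers, with 1 colour per gene and the KI mice right of the dotted line. All 7 points of WT 1 lie above 0 and all points of KI 1 and KI 2 below it, whereas WT 4 spreads from -0.59 (Klf1) to 0.10 (Slc4a1).

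The spread among the 5 WT livers was not the same for all genes. The SD of log2 CPM was 0.136 for Epor, 0.158 for Sptb, 0.173 for Tfrc, 0.183 for Slc4a1 and 0.185 for Alas2, close to or below the median of 0.182 over 13475 genes. Gata1 (0.269) and Klf1 (0.367) varied more, and 70.0% and 81.4% of genes had a smaller SD. The 2 transcription factors were thus the most variable genes of the list between WT livers.

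Genes outside the list that followed its mean over the 7 livers were ranked by Pearson r among 13483 genes. The highest were Cpox (0.998), which encodes coproporphyrinogen oxidase of the haem pathway, Cep76 (0.995), Pigq (0.991), Depdc1b (0.991), G2e3 (0.990), Dmtn (0.987), which encodes the membrane-skeleton protein dematin, A630089N07Rik (0.986), Usp46 (0.985), Fancd2 (0.984) and Rab3il1 (0.983). Of 53 further genes in 4 lists of red-cell genes, 36 had an r over 0.8, compared with 5.35% of all genes, and their median r was 0.915 against 0.00801. These are 7 points per gene that share depth and genotype, and no test is attached to them.

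These 53 genes of haem synthesis, the red-cell membrane, erythroid transcription and late maturation were lower in KI than in WT liver in 51 cases. The test called 13 of them lower, which is 24.5% against 1.68% of all genes tested, and called none higher. Both KI livers were below all WT livers for 35 of the 53 genes (66.0%, against 12.9% of all genes). The lists were written with earlier results of these data known, and many of their genes move with the 7 genes above, so they are not separate evidence of the direction. The count of 13 became 0 without KI 1 and 0 without KI 2, 7 without WT 3 and 26 without WT 4.

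Among 17 genes of the red-cell membrane, all were lower on average, with a median log2 fold change of -0.52, and 7 fell. Ank1, which encodes the ankyrin that ties band 3 to spectrin, measured 210 ± 9.10 CPM in KI and 343 ± 41.5 CPM in WT livers (SD, n = 2 and 5), with a log2 fold change of -0.69 (adjusted p = 0.0317). Rhag, which encodes the Rh-associated glycoprotein, fell by 0.60 on the log2 scale (adjusted p = 0.0446), Ermap by 0.58 (adjusted p = 0.0518) and Add2, which encodes an adducin, by 0.57 (adjusted p = 0.0448). Add2 is not particular to red cells: its mean was 245 CPM in WT livers and 247 CPM in WT brains. The abundant Epb4.1 (protein 4.1) had a log2 fold change of -0.28 with an adjusted p of 0.296.

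Of 13 other haem genes, 12 were lower on average with a median log2 fold change of -0.35, but 1 fell. It was Slc25a37, which encodes mitoferrin, the importer of iron into mitochondria, at 913 ± 50.9 CPM in KI and 1360 ± 183 CPM in WT livers (log2 fold change -0.56, adjusted p = 0.0829). Cpox had the same log2 fold change of -0.56 with an adjusted p of 0.119, and Fech, the ferrochelatase that inserts the iron, had -0.39 with 0.143. Both KI livers were below all WT livers for 10 of the 13 genes.

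Of 10 further erythroid transcription factors, all were lower on average (median -0.29) and 2 fell. Foxo3, a factor of late erythroid maturation, was at 48.2 ± 0.213 CPM in KI and 75.3 ± 8.39 CPM in WT livers, with a log2 fold change of -0.63 and an adjusted p of 0.029. Sox6, which takes part in silencing embryonic globin, had -0.67 with an adjusted p of 0.0345. The abundant E2f2, Tal1 and Zfpm1 did not pass the test, with log2 fold changes of -0.32, -0.39 and -0.24. Of 13 genes of red-cell enzymes and late maturation, 12 were lower on average and 3 fell: Pklr, the pyruvate kinase of liver and red cells (-0.73, adjusted p = 0.0299), the nuclear exporter Xpo7 (-0.55, adjusted p = 0.0588) and the ubiquitin ligase Trim58 (-0.59, adjusted p = 0.0939). Pklr is also expressed by hepatocytes. Car2 (carbonic anhydrase) and Prdx2 (a peroxiredoxin) had log2 fold changes of -0.49 and -0.14, with adjusted p of 0.283 and 0.617.

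**Figure D4:**
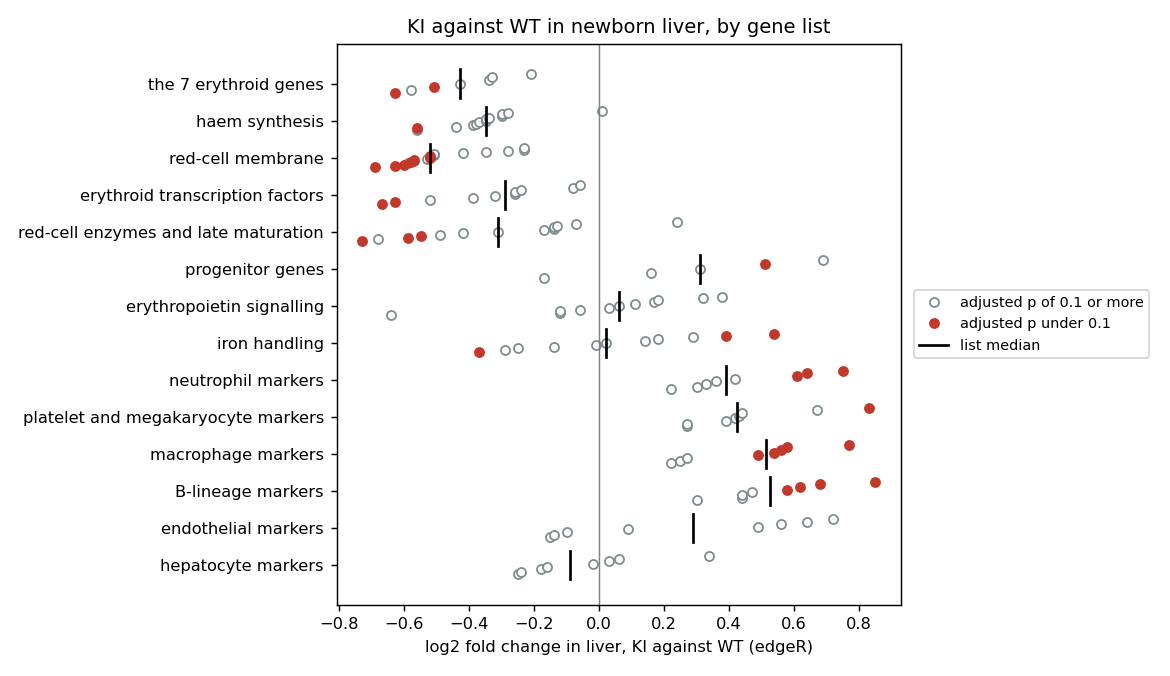
Log2 fold change of KI against WT in the liver for each tested gene of 14 lists, with 1 point per gene, filled where the adjusted p was under 0.1, and a bar at the median of the list. The red-cell lists have medians between -0.52 and -0.29, while the neutrophil, platelet, macrophage and B-lineage lists have medians between 0.39 and 0.53.

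The genes of early progenitors and of signalling did not share this direction. Of 5 progenitor genes, 1 rose: Runx1, a factor of blood stem and progenitor cells, with 35.3 ± 4.63 CPM in KI and 25.0 ± 0.910 CPM in WT livers (log2 fold change 0.51, adjusted p = 0.0502). Myb and Kit, the other abundant ones, had 0.16 and -0.17 with adjusted p of 0.687 and 0.521. None of 11 genes of erythropoietin signalling was called by edgeR, with a median log2 fold change of 0.06. The abundant Bcl2l1, Pim1 and Ptpn6 had log2 fold changes of -0.12, 0.11 and 0.38. Of 11 iron genes, Fbxl5 and Hfe rose (0.39 and 0.54, adjusted p = 0.0654 and 0.0685) and Aco1, an iron regulatory protein that binds the hairpins shown above, fell by 0.37 on the log2 scale (adjusted p = 0.0994). The abundant Trf, Fth1 and Slc40a1 had log2 fold changes of -0.01, 0.02 and 0.14.

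Markers of other blood cells were higher in the same KI livers. The summed neutrophil markers were 8810 to 10500 CPM in KI and 5710 to 7350 CPM in WT livers, with 3 of 8 genes called higher (S100a8, S100a9 and Mmp8) and none lower. The summed macrophage markers were 1780 to 2150 CPM in KI and 1160 to 1550 CPM in WT livers, with Cd5l, Adgre1, C1qa, C1qb and Csf1r called higher among 8, and the B-lineage markers were 214 to 236 CPM in KI and 131 to 178 CPM in WT livers, with 4 of 8 called higher, among them Vpreb3, Cd79b and Cd79a. The platelet and megakaryocyte markers overlapped, with 706 to 892 CPM in KI and 384 to 748 CPM in WT livers (1 of 8 higher, Itga2b at 0.83 on the log2 scale, adjusted p = 0.0456), as did the endothelial markers, with 566 to 695 CPM and 265 to 622 CPM (0 of 8 called). The 8 hepatocyte markers summed to 244000 and 254000 CPM in the KI livers, inside the WT range of 242000 to 300000 CPM, and none was called. These marker genes are named because they were called, after their values were seen. The part of these shifts in the result for the red-cell genes was not tested.

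Cell-cycle genes were also measured, since erythroblasts divide until late in maturation. All 8 were lower on average in KI liver (median -0.18), 1 fell (the proliferation marker Mki67, by 0.50 on the log2 scale with an adjusted p of 0.0955), and their sum was 1620 to 1660 CPM in KI and 1870 to 2590 CPM in WT livers. None of 8 handling and stress genes was called, and their sum was 403 to 418 CPM in KI and 150 to 954 CPM in WT livers.

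The globin genes could not serve as a measure of blood in these files. The adult genes Hba-a1, Hba-a2, Hbb-b1, Hbb-b2, Hbb-bs and Hbb-bt held at most 2 counts in any library, and 0 in every brain and skin library. Between 23.1% and 25.4% of the reads tallied in the livers aligned to more than 1 place and were not counted on any gene. The share was 17.1% to 24.0% in the brains and 20.5% to 22.5% in the skins. Reads that were ambiguous between genes, also not counted, made up 1.31% to 1.64% in the livers. They made up 0.908% to 1.35% in the brains and 0.983% to 1.03% in the skins. Whether globin reads were in either class was not tested. The embryonic genes were counted, with 1.82 to 8.33 CPM for Hba-x, 2.79 to 7.31 CPM for Hbb-y and 0.988 to 2.12 CPM for Hbb-bh1 in the livers. In brain and skin they stayed at or below 0.492 CPM. All globin counts together were also measured against the library totals without TMM scaling. That scale gives lower values than the CPM above in the livers and higher ones in the brains and skins. On it they were at 8.71 ± 5.01 in KI and 6.47 ± 2.37 in WT livers (counts-per-million, SD, n = 2 and 5). The difference was 2.24 (two-sided exact permutation test, p = 0.381, adjusted p = 0.667 over 3 tissues, where 21 splits allow no p below 0.0476). It turned to -1.30 without KI 1. In the brain and skin the differences were -0.13 and -0.22 on the same scale, with exact permutation p of 0.667 and 0.476.

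For the tissues, the 7 genes were all higher in WT liver than in WT brain, by a test that called 39.9% of 16220 genes higher and 44.6% lower in the liver. The WT livers held 11414 reads of Gata1 out of 168502400, and the WT brains 1 read out of 155058501. The ratio of these shares was 10500, with an exact binomial 95% interval of 1880 to 415000 that covers counting error only. Slc4a1 measured 2730 ± 346 CPM in WT livers and 0.498 ± 0.313 CPM in WT brains (SD, n = 5 each), a log2 fold change of 12.36 (SE 0.423, adjusted p = 5.57e-11). Klf1 had a log2 fold change of 8.92 (SE 0.361), Alas2 of 6.88 (SE 0.343) and Epor of 6.66 (SE 0.161). The genes with uses outside red cells differed least, with 3.17 (SE 0.396) for Sptb and 2.75 (SE 0.183) for Tfrc.

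All 7 genes were also higher in WT liver than in WT skin, where the test called 36.6% of 15842 genes higher and 41.3% lower in the liver. Slc4a1 differed most, with a log2 fold change of 10.07 (SE 0.256, adjusted p = 1.2e-10), followed by Klf1 with 8.05 (SE 0.290), Alas2 with 5.91 (SE 0.228) and Gata1 with 5.44 (SE 0.281). Sptb (17.1-fold, adjusted p = 1.02e-06), Epor (12.9-fold) and Tfrc (12.4-fold) differed by less.

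Between WT skin and WT brain, 5 genes were higher in the skin and 1 was lower, where the test called 39.0% of 16326 genes higher and 39.6% lower. Epor was higher in the skin with a log2 fold change of 3.00 (SE 0.272), Slc4a1 with 2.34 (SE 0.428) and Alas2 with 1.02 (SE 0.317, adjusted p = 0.0121). Klf1, at 11 to 29 counts in the WT skins and 3 to 22 in the WT brains, had 0.91 (SE 0.467) with an adjusted p of 0.0983 and lost its call with 8 of 11 other settings, among them the fit with the mouse as a block (adjusted p = 0.13). Tfrc was lower in the skin, with -0.83 (SE 0.227), and Sptb had -0.88 (SE 0.472) with an adjusted p of 0.112. Sptb was called lower in the skin when WT 5 was left out of both tissues (-1.17, adjusted p = 0.0205), without WT 4 (adjusted p = 0.0828), with library totals (adjusted p = 0.0718), by the Wald test (adjusted p = 0.0711) and in the fit of all 21 libraries (adjusted p = 0.0407).

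Gata1 was present in every skin library, with 1.49, 1.68, 1.79, 3.89 and 1.97 CPM in WT 1 to WT 5 and 1.29 and 2.08 CPM in KI 1 and KI 2, whereas it had 0 reads in 5 brains and 1 read in the other two. Against 1 read over all WT brains a fitted fold change carries no meaning, and the test of skin against brain called it higher in the skin (adjusted p = 4.73e-07). The ratio of Gata1 to Klf1 counts was 1.96 to 11.6 in the skins and 0.518 to 0.772 in the livers. Gata1 is also a factor of mast cells, and 7 mast cell markers, chosen after the skin values were seen, summed to 2040 to 3270 CPM in WT skins, 4.80 to 8.11 CPM in WT livers and 0.665 to 1.39 CPM in WT brains. In the KI mice the sums were 2120 to 3370 CPM in skin and 8.28 to 13.6 CPM in liver. The highest of them in skin was Cpa3, a mast cell protease, with 1120 ± 223 CPM in WT. The part of mast cells in the skin level of Gata1 was not tested, and WT 4, with the highest Gata1, had a marker sum of 2430 CPM, inside the range of the other skins.

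The erythroid genes did not keep the liver's proportions in the other tissues. The ratio of Alas2 to Slc4a1 counts was 0.314 to 0.497 in the 7 livers, 3.87 to 8.90 in the skins and 7.45 to 31.9 in the brains, and the livers did not overlap either tissue. In the brains that ratio rests on 123 to 482 reads of Alas2 and 9 to 33 reads of Slc4a1. The ratio of Epor to Slc4a1 was 0.0227 to 0.0294 in the livers, 1.12 to 5.02 in the skins and 0.697 to 2.91 in the brains. Klf1 over Alas2 moved the other way, with 0.106 to 0.175 in the livers, 0.0182 to 0.0575 in the skins and 0.0130 to 0.0813 in the brains. For Tfrc and Sptb, which other cells of brain and skin express, the ratio to Slc4a1 was 14.2 or more and 3.37 or more outside the liver. These ratios were chosen after the values were seen and are given without a test.

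**Figure D5:**
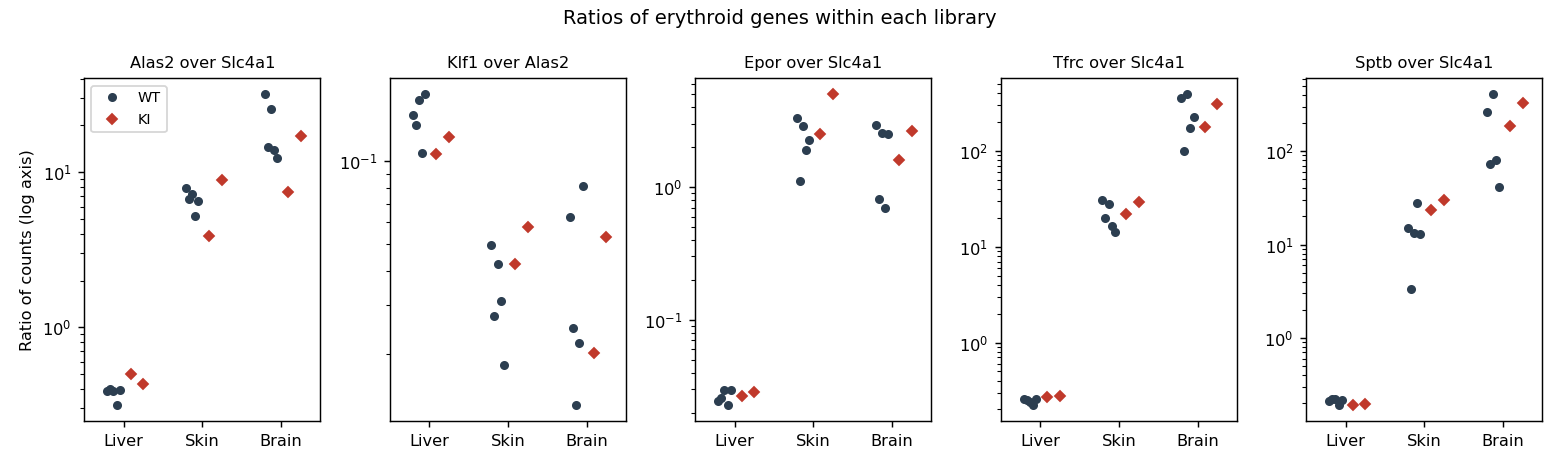
Ratio of the counts of 2 genes within each library (log axis) in the liver, skin and brain, with circles for WT and diamonds for KI mice. The ratio of Alas2 to Slc4a1 is under 0.5 in every liver and over 3.8 in every skin and brain library.

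Within the livers, the ratio of Alas2 to Slc4a1 was 0.497 in KI 1 and 0.429 in KI 2, above the WT range of 0.314 to 0.402. The ratio of Tfrc to Slc4a1 was 0.273 to 0.279 in KI and 0.221 to 0.260 in WT livers. Sptb kept its ratio to Slc4a1, with 0.192 to 0.194 in KI inside the WT range of 0.189 to 0.222. The ratio of Epor to Slc4a1, at 0.0266 to 0.0285 in KI, also lay inside the WT range of 0.0227 to 0.0294. Klf1 over Alas2 (0.106 to 0.122 in KI, 0.107 to 0.175 in WT) overlapped between the groups. So did Gata1 over Klf1 (0.72 to 0.772 in KI, 0.518 to 0.759 in WT). These liver ratios were also chosen after the values were seen and are given without a test. The ratios of Alas2 and of Tfrc, which did not overlap, share Slc4a1 as denominator and are not separate results.

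In the brain no gene of the list was called between KI and WT mice by edgeR or by DESeq2. Gata1 was too low to be tested, and of the other 6, 1 had an unadjusted p under 0.05, where the test called 0.0% of 16322 genes and 10.6% had an unadjusted p under 0.05. For no gene of the list did the KI brains lie below or above all WT brains, as they did for 11.1% and 17.9% of all genes. The gene with an unadjusted p under 0.05 was Alas2, with 8.55, 12.9, 5.88, 10.9 and 3.90 CPM in WT 1 to WT 5 and 3.58 and 4.66 CPM in KI 1 and KI 2. The KI brains were below 4 of the WT brains, and WT 5 lay between them. The log2 fold change was -1.11 (SE 0.455, adjusted p = 0.446), and without WT 5 it was -1.27 with an adjusted p of 0.0599.

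Slc4a1 in the brain had 0.268, 0.883, 0.230, 0.791 and 0.317 CPM in WT 1 to WT 5 and 0.481 and 0.273 CPM in the KI brains. The groups overlapped fully, and the log2 fold change was -0.48 (SE 0.667). WT 2 and WT 4 were the 2 highest brains for both Alas2 and Slc4a1. Sptb in the brain had 71.2, 64.6, 94.4, 64.3 and 13.2 CPM in WT 1 to WT 5 and 89.7 and 89.8 CPM in the KI brains. WT 5 lay far below the other 6 brains, and the log2 fold change of 0.46 (SE 0.546) became 0.23 without it. Klf1, Epor and Tfrc had log2 fold changes of -0.97, 0.03 and -0.27, with adjusted p of 0.706 to 0.982. Without WT 5 these were -0.93, 0.11 and -0.33, Slc4a1 had -0.58, and none of them was called.

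In the skin no gene of the list was called by either tool, where edgeR called 0.0247% of 16163 genes, all of them higher in KI (0.0% lower). At an unadjusted p under 0.05 there were 2 of 7, against 4.57% of all genes. Alas2 had 15.3, 23.0, 17.7, 10.8 and 18.5 CPM in WT 1 to WT 5 and 6.49 and 11.3 CPM in KI 1 and KI 2. KI 1 was the lowest skin and WT 4 lay below KI 2. Skin Alas2 thus had a log2 fold change of -0.96 (SE 0.332, adjusted p = 0.973). Slc4a1 had 1.94, 3.41, 2.46, 2.06 and 2.83 CPM in the WT skins and 1.68 and 1.27 CPM in the KI skins, at 41 to 124 reads. Both KI skins were below all WT skins, as they were for 3.82% of all genes, while no gene of the list had both above (5.45% of all genes), and the log2 fold change was -0.80 (SE 0.344, adjusted p = 0.999).

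WT 2 had the highest Alas2 and the highest Slc4a1 in both the brain and the skin, though not in the liver. The other genes of the list in skin had log2 fold changes between -0.57 (Tfrc) and 0.21 (Sptb), with adjusted p of 0.999 each. Sptb varied widely among the WT skins, from 11.5 CPM in WT 2 to 57.0 CPM in WT 4, with an SD of log2 CPM of 0.847 that 93.2% of genes did not reach.

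Whether the KI difference itself changed from tissue to tissue was tested as an interaction. No gene of the list was called in any of the 3 pairs of tissues by edgeR or DESeq2, and none had an unadjusted p under 0.05. For the liver and brain, 2.65% of 17420 genes were called and 14.9% had an unadjusted p under 0.05. For the liver and skin these shares were 0.0647% and 6.91% of 17014, and for the skin and brain 0.0% and 5.74% of 17504. Alas2, with a fold change nearest 0 in the liver and furthest below it in the other tissues, had a difference of 0.90 (SE 0.461, adjusted p = 0.389) between liver and brain and of 0.71 (SE 0.369, adjusted p = 0.739) between liver and skin. Sptb had a difference of -1.10 (SE 0.616, adjusted p = 0.431) between liver and brain. Without WT 5 it was -0.96 with an adjusted p of 0.0329.

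The precision differed between tissues. On counts simulated with the spread of these libraries, edgeR recovered 69.0% of 2-fold changes in the liver, 28.3% in the brain and 32.7% in the skin, so that in the simulated brain and skin counts most changes of that size were missed.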

How the data were processed

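RNA of 21 libraries was sequenced as paired-end reads from unstranded TruSeq libraries. The authors trimmed the reads and aligned them to mm9 with TopHat2, and the submitters' processing notes also name HTSeq and DESeq, without versions. They deposited raw read counts per gene symbol for each library, not normalized, with lines for unassigned reads that were left out of library sizes and tests. The skin RNA was less intact than that of the other tissues. Libraries were grouped by their titles, and a genotype and number shared by 3 tissues was read as 1 mouse, so that replicates are different mice.

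KI and WT were compared within each tissue (7 libraries), tissues within WT mice (10 libraries) and the KI effect between tissues as an interaction (14 libraries). The main fits between tissues held no term for the mouse, although tissues of the same mice were compared. The mouse as a block was an alternative. After filterByExpr and TMM scaling, edgeR 4.0.16 (R 4.3.3) gave quasi-likelihood p-values, which were adjusted over all genes tested by Benjamini-Hochberg. A gene was called below 0.1. RPKM used 1 annotated transcript per gene. Log2 CPM used a prior count of 2. Motifs, hairpins and permutation tests were computed in Python 3.11.15 with scipy 1.17.1, and the steps were tested on simulated data with 200 changed genes. The genes named were those of the list, up to 5 called genes and the 3 most abundant genes of each further list, the 10 genes most like the list in liver and the globins; some genes that this rule names are not reported here. The 8 genes, the further lists and the tests were chosen with earlier results of these data known.

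Alternatives were size factors of DESeq2 1.42.0, library totals, no filter, the Wald test of DESeq2, a fit of all 21 libraries, an adjusted p of 0.05, a replicate block and each mouse left out. The settings for the 53 red-cell genes and the mast cell markers were chosen after seeing the data.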

Additional observations from a re-analysis of the deposited data

Results flagged for a closer look

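A value stood apart from the other 4 WT mice of its tissue in 4 of the 21 sets of 5 WT libraries examined, by Dixon's test on log2(CPM + 0.1). Chance gives about 1 in 20 such sets. Tfrc in the liver of WT 1 was 818 CPM, against 597 to 650 CPM in the other WT livers. Gata1 in the skin of WT 4 was 3.89 CPM, against 1.49 to 1.97 CPM in the others. Gata1 in the brain of WT 4 was 0.024 CPM, which is 1 read, against 0 in the others. With the others all at 0, any read raises this flag, so it carries no weight in the count of 4. Sptb in the brain of WT 5 was 13.2 CPM, against 64.3 to 94.4 CPM in the other WT brains, and that library stood apart over all genes too.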

How the results depend on the processing

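For the liver, the 2 calls of KI against WT became 1 at an adjusted p under 0.05, 1 with library totals, 0 in the fit of all 21 libraries, whose spread is shared by the tissues, and 0 to 3 when a mouse was left out. The count was 2 with DESeq2 size factors, no filter or the replicate block, where Klf1 (adjusted p = 0.048) took the place of Slc4a1 (adjusted p = 0.115), and 3 with the Wald test. The 13 of 53 red-cell genes called lower became 8 with library totals, 21 with the Wald test, 1 in the fit of all 21 libraries, 24 with the replicate block and 0 to 26 with a mouse left out. In the brain the count of 0 became 2 with the replicate block (Alas2 lower, adjusted p = 0.0211, and Sptb higher, adjusted p = 0.0814) and 0 to 1 with a mouse left out. The difference of the KI effect between liver and brain went from 0 calls to between 0 and 1. The replicate block fits a level for each mouse number, and only WT mice have the numbers 3 to 5. Within a tissue, WT 3 to WT 5 are thus each absorbed by their own level. Its KI difference then rests on KI 1, KI 2, WT 1 and WT 2 alone, so its calls do not draw on all WT mice. The numbers in the titles are not known to pair KI with WT mice: deviations of same-numbered livers, brains and skins correlated with a mean r of -0.0601, -0.0383 and 0.118. With the mouse as a block, skin against brain had 5 calls instead of 6, and 5 to 7 over all settings. The cause of these changes was not tested. Depth limits the brain values of Gata1 (0 to 1 reads), Klf1 (3 to 22 reads) and Slc4a1 (9 to 33 reads).

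Calls of liver against brain and liver against skin were 7 under every setting tried, although library totals moved the median of all genes from -0.104 to -0.845 and from -0.062 to -0.765. The globin difference in liver ranged from -1.30 to 5.78 counts-per-million of the library totals with a mouse left out. Changes of sign occurred in values that did not pass the test. With the replicate block, Epor was -0.09 in brain and 0.03 in skin, Gata1 was 0.02 in skin, the liver minus skin difference of Gata1 was -0.00 and the skin minus brain difference of Alas2 was -0.03. With a mouse left out, Epor ranged from -0.03 to 0.11 in brain and from -0.41 to 0.22 in skin, and Klf1 from -1.04 to 0.22 in skin. The liver minus brain difference ranged from -0.22 to 1.46 for Klf1, -0.39 to 0.45 for Slc4a1, -2.39 to 0.94 for Gata1 and -0.26 to 0.01 for Tfrc. The liver minus skin difference ranged from -0.38 to 0.34 for Gata1 and -0.79 to 0.43 for Klf1, and the skin minus brain difference from -0.56 to 0.13 for Epor, -2.43 to 1.28 for Gata1 and -0.16 to 0.30 for Alas2.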

Other observations

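Most genes of the wider red-cell lists, like the 7 genes, were higher in liver than in brain or skin of WT mice. Of 13 haem synthesis genes, 13 were higher in liver than in brain, where 39.9% of all genes were, and 12 were higher in liver than in skin, where 36.6% of all genes were. Of 17 membrane genes, 16 were higher in liver than in brain and 16 than in skin, with median log2 fold changes of 6.92 and 7.50. Of 13 genes of red-cell enzymes and late maturation, 12 and 13 were higher, and of 10 further erythroid transcription factors 9 and 8. Of 5 progenitor genes, which mast cells and other blood or vessel cells also express, 2 were higher and 2 lower in liver than in brain, and 1 higher and 3 lower than in skin. Between skin and brain the lists were mixed: 8 haem synthesis genes were higher and 4 lower in skin, 5 membrane genes higher and 4 lower, 4 transcription factors higher and 3 lower, and 1 gene of enzymes and late maturation higher and 4 lower.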
